A study of Arabidopsis thaliana with 2 samples.

Results

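The 52 nuclear genes described here encode the light-harvesting antennae, the photosystem subunits, plastocyanin and key proteins of the Calvin cycle of Arabidopsis thaliana, and their transcripts were measured in both regions of the globular embryo, the suspensor and the embryo proper. They were taken by locus identifier and gene family, not by level: 14 LHCB and 6 LHCA antenna genes, 12 photosystem I genes (PSA), 10 photosystem II genes (PSB), 2 plastocyanin genes (PETE) and 8 Calvin cycle genes. Of 20029 genes listed in either library, 51 were members, and RBCS2B (AT5G38420) was listed in neither. The suspensor is the file of cells that anchors and feeds the embryo, and the embryo proper is the round body above it from which the seedling forms. Both regions came from plants of genotype Ws-0, 38 to 46 days old and grown at 20 °C in constant light, with no treatment or allele that differed between them. Regions were recognised by their shape on sections 5 or 7 μm thick, in seeds whose embryos were 24 to 32 μm wide, and were dissected with a laser. The sources used here do not give the number of seeds and plants pooled.

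In a leaf, the LHCB and LHCA proteins bind chlorophyll and pass light energy to photosystem II and photosystem I. Photosystem II splits water, plastocyanin carries electrons to photosystem I, and the Calvin cycle uses the resulting NADPH and ATP to fix carbon dioxide through Rubisco. All of these members are encoded in the nucleus and imported into plastids, whereas the reaction centre cores and the large subunit of Rubisco are encoded by the plastid genome. Embryos of Arabidopsis turn green during their development and lose most of their chlorophyll as the seed dries.

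Each region gave 1 library, so no test was possible and no p-value is given. The values are RPKM, read counts scaled to gene length and library size, as the authors deposited them, and a gene that a file does not list was taken as 0. Recovered reads assigned to genes numbered 7183916 in the suspensor against 12710421 in the embryo proper, with 18672 genes listed in the suspensor and 18071 genes in the embryo proper. The interval after a fold is a 95% exact binomial interval on those reads; the reads were amplified by PCR without molecular identifiers, so it covers counting error only and says nothing of how other plants or dissections would differ. The labels were checked with marker genes. The 6 suspensor markers, among them WOX8 and PIN7, summed to 440 RPKM in the suspensor and 33.5 RPKM in the embryo proper, with SSP at 0 in the embryo proper. The 9 embryo proper markers, among them PHB and SHR, summed to 21.1 RPKM in the suspensor and 719 RPKM in the embryo proper.

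Most photosystem and Calvin cycle transcripts were modestly higher in the suspensor than in the embryo proper. Summed over the 52 members the level was 2995 RPKM in the suspensor and 1927 RPKM in the embryo proper, and the members took 0.197% of recovered reads (0.194 to 0.201) in the suspensor and 0.129% (0.127 to 0.131) in the embryo proper. Of the 47 members that reached 1 RPKM in either library, 41 were higher in the suspensor by some amount (87.2%), where 53.2% of the 16975 genes passing the same filter were. On the scale of log2(RPKM + 1), which understates the ratio of low genes, 16 members were higher in the suspensor by 2-fold or more (34.0%), close to the 29.3% of all genes. Only PETE2 was higher in the embryo proper by 2-fold or more (2.13% of members), where 23.1% of all genes were. Most members were thus within 2-fold between the regions, 30 of 47 (63.8%), beside 47.6% of all genes. By 4-fold or more, 5 of the 47 were higher in the suspensor, beside 12.3% of all genes. In the embryo proper 0 were, beside 8.32%. The members' median log2 ratio of suspensor over embryo proper was 0.78, with quartiles of 0.43 and 1.14, beside 0.13 for all genes, with quartiles of −0.90 and 1.18. The counts depended on the scale set for each library, since RPKM is a share of all reads and the most abundant gene, AT3G24250, held 300168 RPKM in the suspensor and 123480 RPKM in the embryo proper. Scaled without the 10 most abundant genes of each library, 26 members were higher in the suspensor by 2-fold or more, and 0 in the embryo proper, beside 35.4% of all genes toward the suspensor and 18.8% toward the embryo proper, and the median of all genes moved to 0.40. LHCB4.3 and PSAH1 passed the filter through the suspensor alone, so their direction was fixed by it. The 5 members below the filter were LHCB1.4, LHCB2.3, LHCA5, RBCS1B and RBCS2B.

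Both libraries held these transcripts at moderate to high levels. The median member stood at 23.2 RPKM in the suspensor and 13.6 RPKM in the embryo proper, beside 12.1 RPKM in the suspensor and 10.4 RPKM in the embryo proper for all genes passing the filter. RBCS1A, PSBO1 and PSBW were the highest members in the suspensor, above 98.3%, 97.7% and 97.7% of the genes listed there. In the embryo proper RBCS1A, PSBO1 and PETE2 led, above 96.6%, 96.5% and 96.5% of listed genes. Across members the levels in the suspensor and the embryo proper, as log2(RPKM + 1), were correlated at 0.92 (Pearson) and 0.90 (Spearman), against 0.70 and 0.67 over all genes. These are descriptions across genes, which share their library and depth and are not independent replicates.

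**Figure D1:**
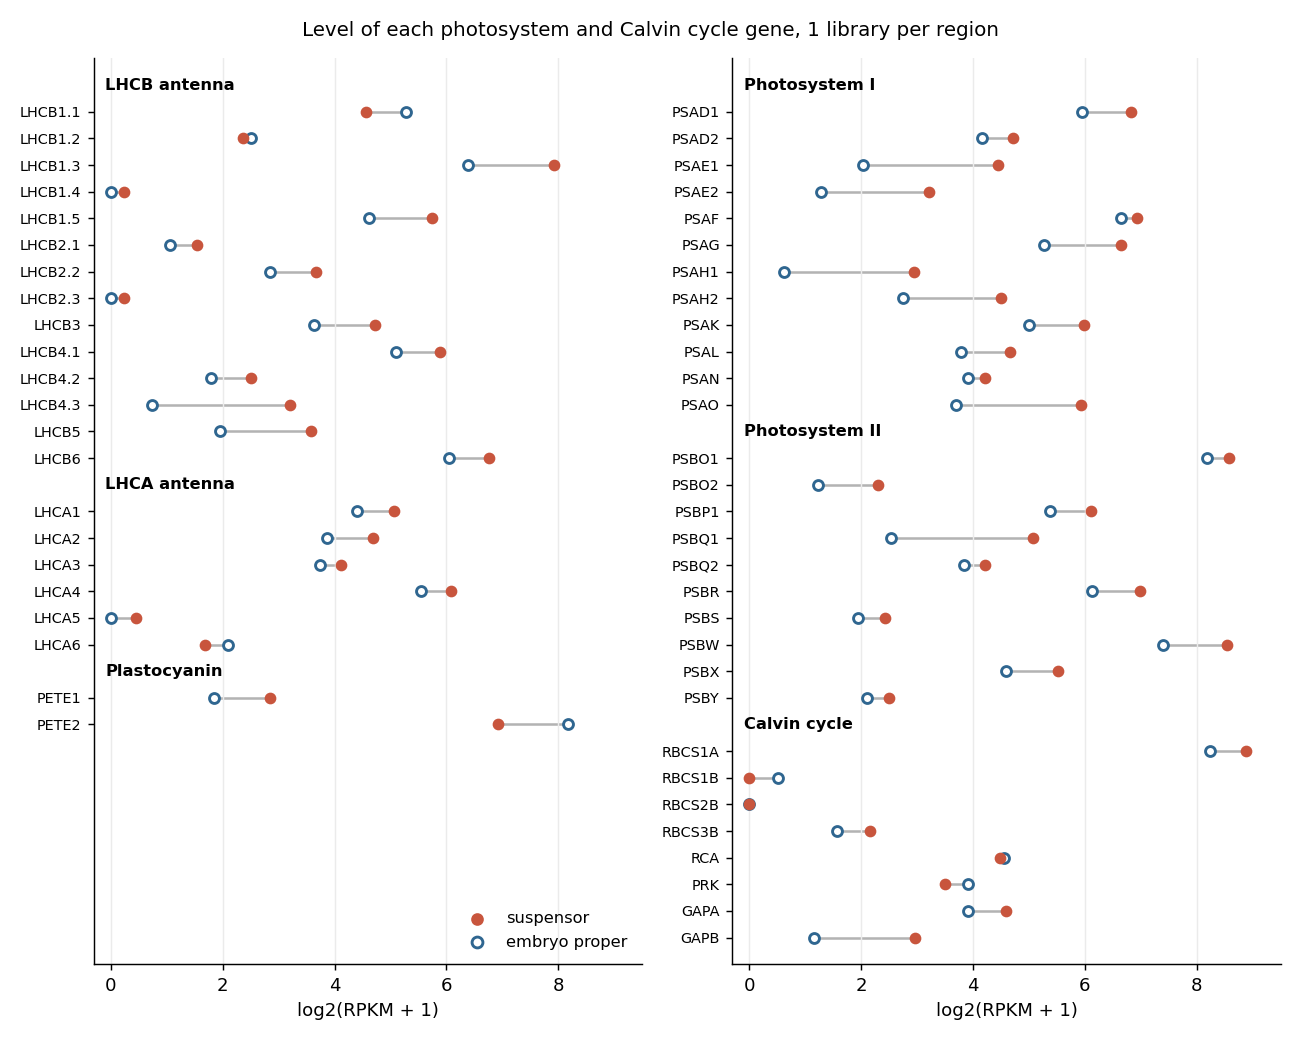
Level of each of the 52 members as log2(RPKM + 1), with filled points for the suspensor library and open points for the embryo proper library, 1 library each; a gene not listed is drawn at 0. In 41 of the 47 members that pass the filter the suspensor point lies to the right, and PETE2 has the widest gap in the other direction, at 121 RPKM in the suspensor and 289 RPKM in the embryo proper.

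Markers of the neighbouring seed tissues were also higher in the suspensor library. The 10 endosperm markers summed to 386 RPKM in the suspensor and 25.5 RPKM in the embryo proper. Of these 10, 9 were higher in the suspensor by 2-fold or more and PHE1 was below the filter; IKU2, FIS2 and MEA passed the filter through the suspensor alone, so their direction was fixed by it. The 13 seed coat markers summed to 122 RPKM in the suspensor and 8.07 RPKM in the embryo proper. Of these 13, 9 were higher in the suspensor by 2-fold or more, but 8 of the 11 that passed the filter did so through the suspensor alone, which fixed their direction. Of the other three, TT1 and TT4 were higher in the suspensor by 2-fold or more, and MUM4 had 2.15 RPKM in the suspensor and 3.38 RPKM in the embryo proper. TT16 was at 0 in both libraries, and BAN, TT8, TT2 and TT10 were at 0 in the embryo proper. These markers run with every count and sum of members higher in the suspensor, given above or below, and their part in those values was not tested. In dissected tissue, fewer cells that express a gene and less RNA of it in each cell cannot be told apart.

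The upstream sequences of 4 members show the range within the set: LHCB1.3, the most abundant antenna gene; PSBQ1 and PSBQ2, paralogues of 1 subunit with unlike ratios; and PETE2, the member furthest toward the embryo proper among those that pass the filter. Each is the 250 bases before the annotated gene start in RefSeq's annotation of TAIR10.1, a genome of the accession Columbia, so the Ws-0 plants may differ from it. Capitals mark the G-box CACGTG, the I-box GATAAG and the GLK element CCAATC, read on both strands, and bases in lower case hold none of them. The sequences run 5′ to 3′ on the strand of the gene, at chr1:10477635-10477884 (plus strand) for LHCB1.3, chr4:11334102-11334351 (plus) for PSBQ1, chr4:2673244-2673493 (minus) for PSBQ2 and chr1:7043393-7043642 (minus) for PETE2.
LHCB1.3: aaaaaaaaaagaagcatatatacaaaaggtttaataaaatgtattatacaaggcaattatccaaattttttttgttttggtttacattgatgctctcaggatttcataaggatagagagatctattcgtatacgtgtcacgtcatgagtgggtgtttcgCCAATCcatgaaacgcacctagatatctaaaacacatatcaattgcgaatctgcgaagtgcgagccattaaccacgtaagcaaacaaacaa
PSBQ1: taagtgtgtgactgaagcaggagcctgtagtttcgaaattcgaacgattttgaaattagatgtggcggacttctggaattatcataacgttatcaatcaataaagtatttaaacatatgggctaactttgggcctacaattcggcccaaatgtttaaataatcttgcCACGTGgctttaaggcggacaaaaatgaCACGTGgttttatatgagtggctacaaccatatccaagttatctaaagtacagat
PSBQ2: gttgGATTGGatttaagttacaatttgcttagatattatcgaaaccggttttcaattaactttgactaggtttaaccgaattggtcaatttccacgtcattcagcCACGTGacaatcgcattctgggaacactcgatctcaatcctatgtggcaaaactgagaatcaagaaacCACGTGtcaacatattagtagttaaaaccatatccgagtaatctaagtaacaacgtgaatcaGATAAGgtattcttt
PETE2: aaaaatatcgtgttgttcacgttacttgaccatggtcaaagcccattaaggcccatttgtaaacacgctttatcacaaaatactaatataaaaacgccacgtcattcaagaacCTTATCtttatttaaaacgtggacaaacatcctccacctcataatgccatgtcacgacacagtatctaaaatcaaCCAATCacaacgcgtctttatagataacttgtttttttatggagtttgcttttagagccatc
The LHCB1.3 window holds 1 GLK element, which begins 91 bases before the start. PSBQ1 holds 2 G-boxes, 83 and 55 bases before the start. PSBQ2 also holds 2 G-boxes, at 145 and 77 bases, with an I-box at 15 and a GLK element at 246. PETE2 has an I-box at 137 and a GLK element at 62. Both PSBQ windows thus hold 2 G-boxes, and both words of the PETE2 window also occur in that of PSBQ2.

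Over all 52 members, 10 had a G-box in this window (19.2%), beside 6.49% of 27443 protein-coding genes of the annotation. An I-box was found in 12 members (23.1%), beside 12.3%, and a GLK element in 13 (25.0%), beside 10.2%; matches of different words were counted separately even where they overlap. By complex, the GLK element was in 7 of 14 LHCB, 3 of 6 LHCA, 0 of 12 photosystem I, 1 of 10 photosystem II, 1 of 2 plastocyanin and 1 of 8 Calvin cycle promoters, and the difference among them was not tested. By ratio, it was in 2 of the 16 members higher in the suspensor by 2-fold or more and in 9 of the 30 within 2-fold. The G-box was in 3 of those 16 and 5 of those 30, and the I-box in 1 and 9. A match of 6 letters is a description of the window and not a binding site.

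The LHCB genes encode the antenna of photosystem II, and as a group they were higher in the suspensor. Their sum was 549 RPKM in the suspensor and 272 RPKM in the embryo proper, a fold of 2.02 from the reads (1.92 to 2.12). Of the 12 that passed, 5 were higher in the suspensor by 2-fold or more (41.7%, beside 29.3% of all genes). LHCB4.3, 1 of these 5, passed the filter through the suspensor alone. In the embryo proper 0 were higher by 2-fold or more, beside 23.1% of all genes. LHCB1 and LHCB2 proteins form the mobile trimers of the antenna. LHCB1.3 (AT1G29930) was by far the most abundant of them in both regions, with 242 RPKM in the suspensor and 83.1 RPKM in the embryo proper, 2.90-fold higher in the suspensor (2.66 to 3.17). LHCB1.5 (AT2G34420) stood at 52.3 RPKM in the suspensor and 23.5 RPKM in the embryo proper. LHCB1.1 (AT1G29920) ran the other way, at 22.7 RPKM in the suspensor and 37.8 RPKM in the embryo proper, a fold of 0.600 (0.489 to 0.734). LHCB1.2 (AT1G29910) was low in both, at 4.15 RPKM in the suspensor and 4.70 RPKM in the embryo proper, and its log2 ratio of −0.14 changed sign with the scaling (−0.26 to 0.10). LHCB1.4 (AT2G34430) rested on 1 read in the suspensor and had no entry in the embryo proper, as did LHCB2.3 (AT3G27690).

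These LHCB1 loci are close copies of each other, which limits how far they can be separated. The coding sequences of LHCB1.1, LHCB1.2 and LHCB1.3 are 95.6% to 96.4% identical, and 34.3% of the 50-base windows of LHCB1.1 and 26.6% of those of LHCB1.3 occur exactly in another locus. The sources used here do not say how reads with several matches were treated. Summed over its 5 loci, LHCB1 stood at 321 RPKM in the suspensor and 149 RPKM in the embryo proper, 2.15 times as high. Of the LHCB2 genes, LHCB2.2 (AT2G05070) was the main locus, at 11.7 RPKM in the suspensor and 6.21 RPKM in the embryo proper. LHCB2.1 (AT2G05100) had 1.92 RPKM in the suspensor and 1.08 RPKM in the embryo proper, and its interval of 0.756 to 4.14 includes 1. LHCB3 (AT5G54270), a partner in the trimers, stood at 25.4 RPKM in the suspensor and 11.4 RPKM in the embryo proper.

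LHCB4, LHCB5 and LHCB6 are the monomeric antenna proteins that join the trimers to the photosystem II core. LHCB6 (AT1G15820) was the most abundant, at 107 RPKM in the suspensor and 65.4 RPKM in the embryo proper, 1.64-fold higher in the suspensor (1.47 to 1.84). LHCB4.1 (AT5G01530) had 57.8 RPKM in the suspensor and 33.2 RPKM in the embryo proper, and LHCB4.2 (AT3G08940) 4.67 RPKM in the suspensor and 2.46 RPKM in the embryo proper. LHCB4.3 (AT2G40100) had the largest fold of the antenna genes that passed, at 8.20 RPKM in the suspensor and 0.662 RPKM in the embryo proper. That is a fold of 12.4 (5.58 to 32.4), resting on 49 reads in the suspensor against 7 in the embryo proper, and it passed the filter through the suspensor alone. LHCB5 (AT4G10340) was 3.77-fold higher in the suspensor (2.42 to 5.97), at 10.9 RPKM in the suspensor and 2.89 RPKM in the embryo proper. The folds of LHCB4.1 and LHCB4.2 were 1.75 and 1.90, nearer to that of LHCB6 than to those of LHCB4.3 and LHCB5. LHCB4.2 was low in both regions, and its interval (1.09 to 3.34) overlaps that of LHCB5.

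The LHCA genes, whose products form the belt around photosystem I, lay closer together in the 2 regions. Their sum was 143 RPKM in the suspensor and 95.6 RPKM in the embryo proper, 1.49-fold from the reads (1.35 to 1.64). None of the 5 that passed was 2-fold apart in either direction, where 47.6% of all genes lay within 2-fold. LHCA4 (AT3G47470) was the most abundant, at 67.0 RPKM in the suspensor and 46.0 RPKM in the embryo proper, followed by LHCA1 (AT3G54890) at 32.4 RPKM in the suspensor and 20.3 RPKM in the embryo proper. LHCA2 (AT3G61470) had the largest ratio of the LHCA genes, at 24.6 RPKM in the suspensor and 13.6 RPKM in the embryo proper. LHCA3 (AT1G61520), at 16.2 RPKM in the suspensor and 12.4 RPKM in the embryo proper, had an interval that includes 1 (0.993 to 1.71), so a difference was not detectable at this depth. LHCA5 and LHCA6 are minor proteins that link photosystem I to the NADH dehydrogenase-like complex. LHCA6 (AT1G19150) stood at 2.22 RPKM in the suspensor and 3.29 RPKM in the embryo proper, with an interval of 0.328 to 1.32 around a fold of 0.676. LHCA5 (AT1G45474) had 2 reads in the suspensor and had no entry in the embryo proper.

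All 12 photosystem I subunit genes were higher in the suspensor by some amount, where 53.2% of all genes were. The median log2 ratio of the 12 was 1.18, beside 0.80 for LHCB. With a filter of 10 RPKM these medians were 0.94 for photosystem I and 0.95 for LHCB, so their order depended on the genes kept. The sum was 580 RPKM in the suspensor and 296 RPKM in the embryo proper. By 2-fold or more, 6 of the 12 were higher in the suspensor (50%, beside 29.3% of all genes). PSAH1, 1 of these 6, passed the filter through the suspensor alone. The most abundant member differed least. PSAF (AT1G31330), which docks plastocyanin, stood at 121 RPKM in the suspensor and 99.5 RPKM in the embryo proper, 1.22-fold higher in the suspensor (1.09 to 1.35). PSAD1 (AT4G02770), of the stromal ridge where ferredoxin docks, had 112 RPKM in the suspensor and 61.2 RPKM in the embryo proper, and its paralogue PSAD2 (AT1G03130) 25.3 RPKM in the suspensor and 17.0 RPKM in the embryo proper. PSAG (AT1G55670), which helps to hold the antenna belt, had 99.4 RPKM in the suspensor and 37.4 RPKM in the embryo proper. PSAK (AT1G30380), on the other antenna side, had 62.3 RPKM in the suspensor and 31.0 RPKM in the embryo proper. PSAL (AT4G12800) had 24.4 RPKM in the suspensor and 12.7 RPKM in the embryo proper. The lumenal PSAN (AT5G64040) had 17.6 RPKM in the suspensor and 14.1 RPKM in the embryo proper, and its interval of 0.902 to 1.71 includes 1.

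The wide ratios of photosystem I lay in PSAE, PSAH and PSAO. PSAE is the other ridge subunit near the ferredoxin site, and both its genes were several-fold higher in the suspensor. PSAE1 (AT4G28750) had 20.9 RPKM in the suspensor and 3.10 RPKM in the embryo proper, 6.76-fold (3.92 to 12.3), and PSAE2 (AT2G20260) had 8.26 RPKM in the suspensor and 1.44 RPKM in the embryo proper, 5.75-fold (2.53 to 14.7). PSAH and PSAO sit where the trimers of the LHCB antenna dock during state transitions, the shift of antenna from photosystem II to photosystem I. PSAO (AT1G08380) stood at 59.8 RPKM in the suspensor and 11.9 RPKM in the embryo proper, 5.03-fold (3.76 to 6.80). PSAH2 (AT1G52230) had 21.6 RPKM in the suspensor and 5.75 RPKM in the embryo proper, 3.76-fold (2.44 to 5.92). PSAH1 (AT3G16140) had 6.67 RPKM in the suspensor and 0.539 RPKM in the embryo proper, on 21 reads in the suspensor and 3 reads in the embryo proper, so its fold of 12.4 has a wide interval (3.70 to 64.8). PSAE1 and PSAG each overlap an annotated locus on the opposite strand, over 55.6% and 77.6% of their coding windows. The sources used here do not say whether counting used strand.

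All 10 photosystem II subunit genes were higher in the suspensor by some amount as well, where 53.2% of all genes were. By 2-fold or more, 3 of the 10 were higher there (30%), close to the 29.3% of all genes. The median log2 ratio of these 10 genes was 0.80. They held the largest share of the member sum in both regions, with 1057 RPKM in the suspensor (35.3%) and 615 RPKM in the embryo proper (31.9%). PSBO, PSBP and PSBQ shield the manganese cluster that splits water. PSBO1 (AT5G66570) was abundant in both, at 381 RPKM in the suspensor and 290 RPKM in the embryo proper, 1.32-fold (1.25 to 1.38), whereas its paralogue PSBO2 (AT3G50820) had 3.91 RPKM in the suspensor and 1.34 RPKM in the embryo proper. PSBP1 (AT1G06680) stood at 68.5 RPKM in the suspensor and 40.5 RPKM in the embryo proper. PSBQ1 (AT4G21280) had a log2 ratio of 2.55, the largest of the members when 1 RPKM is added, at 32.8 RPKM in the suspensor and 4.78 RPKM in the embryo proper. Its fold of 6.86 (4.84 to 9.92) rests on 159 reads in the suspensor against 41 in the embryo proper, and the folds of LHCB4.3 and PSAH1, on fewer reads, were larger. PSBQ2 (AT4G05180) had 17.7 RPKM in the suspensor and 13.3 RPKM in the embryo proper, with an interval of 0.998 to 1.77.

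Among the small membrane subunits of photosystem II, PSBW (AT2G30570) stood at 373 RPKM in the suspensor and 167 RPKM in the embryo proper, 2.23-fold higher in the suspensor (2.04 to 2.44). PSBX (AT2G06520) had 45.2 RPKM in the suspensor and 23.1 RPKM in the embryo proper. PSBY (AT1G67740) had 4.64 RPKM in the suspensor and 3.31 RPKM in the embryo proper, and its interval of 0.725 to 2.67 includes 1. PSBR (AT1G79040), a subunit that helps to hold the oxygen-evolving proteins, had 125 RPKM in the suspensor and 68.8 RPKM in the embryo proper. PSBS (AT1G44575), the sensor of lumen acidity in photoprotection, was low, at 4.36 RPKM in the suspensor and 2.86 RPKM in the embryo proper, and its interval of 0.857 to 2.70 includes 1.

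**Figure D2:**
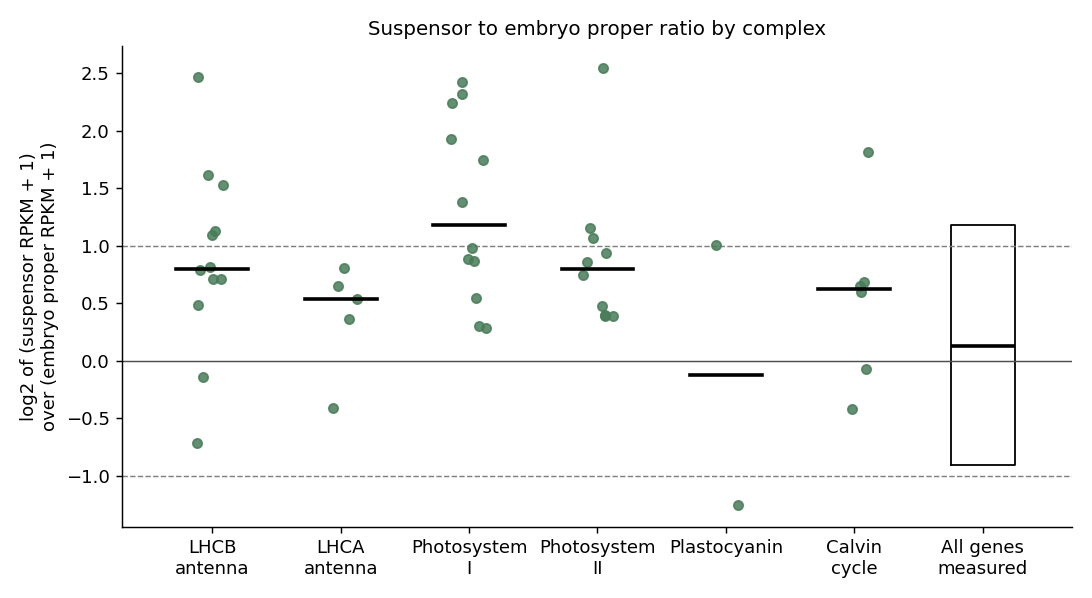
Log2 of suspensor over embryo proper, after adding 1 RPKM to each, for the members of each complex that pass the filter (points), with the median as a bar; the box at the right gives the quartiles and median of all 16975 genes passing the filter. Dashed lines mark 2-fold in either direction. The medians are 1.18 for photosystem I and 0.80 for LHCB, and 1 plastocyanin gene lies below the lower line.

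Plastocyanin, the copper protein between the cytochrome b6f complex and photosystem I, was the exception. PETE2 (AT1G20340), the main gene, stood at 121 RPKM in the suspensor and 289 RPKM in the embryo proper. Its level in the embryo proper was 2.39 times that in the suspensor (2.15 to 2.66), on 438 reads in the suspensor against 1854 in the embryo proper. The minor gene PETE1 (AT1G76100) ran the other way, at 6.20 RPKM in the suspensor and 2.59 RPKM in the embryo proper, 2.36-fold higher in the suspensor (1.29 to 4.37). Together they came to 127 RPKM in the suspensor and 292 RPKM in the embryo proper, which was 4.24% of the member sum in the suspensor against 15.2% in the embryo proper. PETE2 kept its direction under every scaling tried, with a log2 ratio of −0.95 at the nearest to 0, where it no longer passed 2-fold.

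The Calvin cycle members were led by Rubisco. Most of the group lay within 2-fold (83.3% of those that passed, beside 47.6% of all genes). RBCS1A (AT1G67090), the main gene of the small subunit, had 474 RPKM in the suspensor and 303 RPKM in the embryo proper, the highest level of any member in each region, 1.57-fold higher in the suspensor (1.47 to 1.67). RBCS3B (AT5G38410) had 3.47 RPKM in the suspensor and 1.96 RPKM in the embryo proper, and RBCS1B (AT5G38430) was not listed in the suspensor and had 3 reads in the embryo proper. RBCS1B and RBCS2B are 97.3% identical over their coding sequence, so reads of these loci are uncertain. RCA (AT2G39730), which frees Rubisco of inhibitory sugars, was near equal, at 21.5 RPKM in the suspensor and 22.6 RPKM in the embryo proper, and its log2 ratio of −0.07 changed sign with the scaling (−0.21 to 0.22). PRK (AT1G32060), which makes the acceptor of carbon dioxide, had 10.3 RPKM in the suspensor and 14.1 RPKM in the embryo proper, a fold of 0.731 (0.564 to 0.941).

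GAPA and GAPB form the plastid glyceraldehyde-3-phosphate dehydrogenase that spends NADPH. GAPB (AT1G42970) was the only Calvin cycle member at least 2-fold apart, at 6.83 RPKM in the suspensor and 1.23 RPKM in the embryo proper, 5.56-fold (3.36 to 9.57). GAPA (AT3G26650) stood at 23.2 RPKM in the suspensor and 14.1 RPKM in the embryo proper, 1.65-fold (1.36 to 2.01). The genes GAPA and GAPB therefore differed in their ratios, with intervals that do not overlap. A further gene of the A subunit is not a member and is counted with the other Calvin cycle genes below. The group sum was 539 RPKM in the suspensor and 357 RPKM in the embryo proper, most of it from RBCS1A.

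Where a subunit has several genes, the share of each paralogue in the family total could be compared between regions, since RPKM is per length. In several of the 10 families the share of the main gene was close in both regions. RBCS1A made 99.3% of the RBCS sum in the suspensor against 99.2% in the embryo proper, and PSBO1 made 99.0% of its family in the suspensor and 99.5% of it in the embryo proper. LHCB2.2 made 84.8% of the LHCB2 sum in the suspensor (76.0 to 91.6) against 85.1% in the embryo proper (75.9 to 92.0). PSAE1 made 71.7% of PSAE in the suspensor (61.3 to 80.6) and 68.3% of it in the embryo proper, where few reads leave a wide interval (46.8 to 85.2). In PSBQ, alone among the 10 families, the larger gene was not the same in both regions. PSBQ1 made 65.0% of the sum in the suspensor (58.7 to 70.9) and 26.5% in the embryo proper (19.7 to 34.1), with PSBQ2 the larger in the embryo proper. Within LHCB1, LHCB1.3 made 75.3% in the suspensor (73.2 to 77.2) and 55.8% in the embryo proper (53.2 to 58.3), and LHCB1.1 made 7.06% in the suspensor (5.94 to 8.33) and 25.3% in the embryo proper (23.2 to 27.6). The minor genes LHCB4.3 and PETE1 had larger shares in the suspensor. LHCB4.3 made 11.6% in the suspensor (8.71 to 15.0) and 1.83% in the embryo proper (0.738 to 3.73), and PETE1 made 4.88% in the suspensor (3.28 to 7.04) and 0.887% in the embryo proper (0.562 to 1.38). PSAH1 made 23.6% in the suspensor (15.2 to 33.8) and 8.58% in the embryo proper (1.80 to 23.1), and these intervals overlap.

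**Figure D3:**
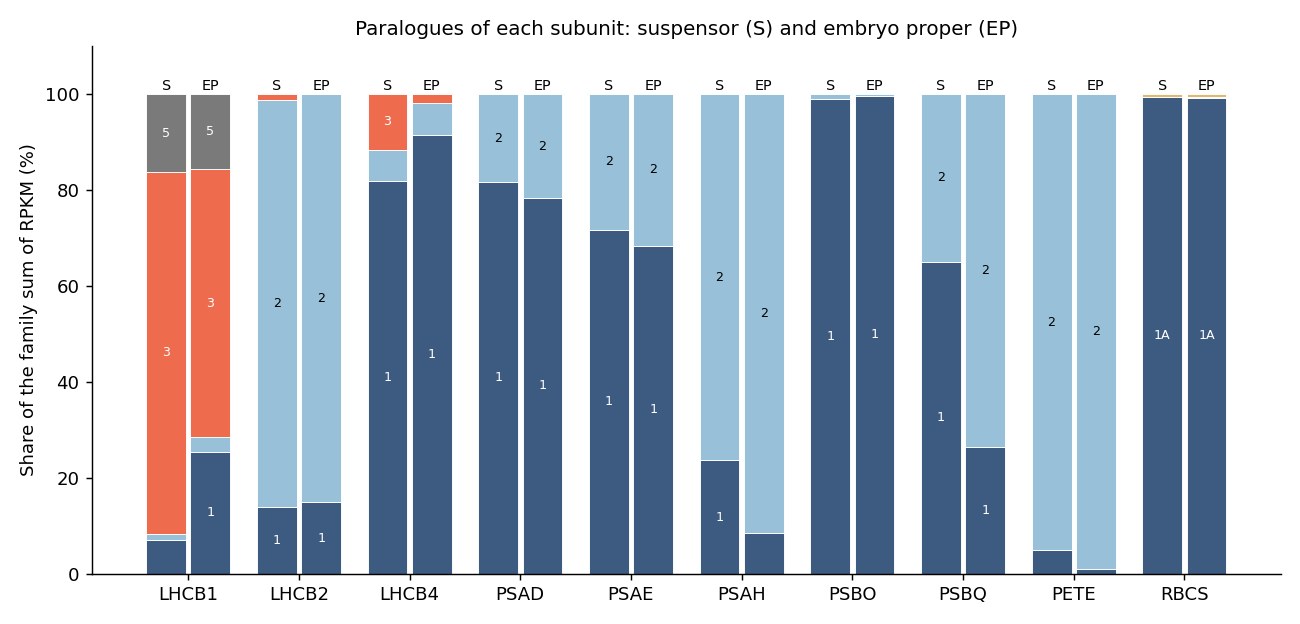
Share of each paralogue in the summed RPKM of its family, in percent, with the suspensor bar (S) left of the embryo proper bar (EP); the digits in the bars are the paralogue numbers, such as 1 for PSBQ1, colours go by that number, and thin slices carry no digit. PSBQ1 takes 65.0% of PSBQ in the suspensor against 26.5% in the embryo proper, while RBCS1A takes at least 99.2% of RBCS in both.

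Other genes of photosynthesis and of the plastid were divided between the regions, list by list; the counts stand beside 29.3% of all genes toward the suspensor and 23.1% toward the embryo proper, with a median of 0.13. Of 13 other Calvin cycle genes, 4 were higher in the suspensor by 2-fold or more, and 1 in the embryo proper; their median log2 ratio was 0.24. RPE (AT5G61410), the plastid ribulose-phosphate epimerase, had 163 RPKM in the suspensor and 29.4 RPKM in the embryo proper, 5.53-fold (4.87 to 6.30), and AT1G56190, of the phosphoglycerate kinase family, had 39.7 RPKM in the suspensor and 14.4 RPKM in the embryo proper. In the other direction, CP12-2 (AT3G62410), a small protein that binds glyceraldehyde-3-phosphate dehydrogenase and PRK, had 1 read in the suspensor against 41 in the embryo proper, at 0.351 RPKM in the suspensor and 8.14 RPKM in the embryo proper, a fold of 0.0432 (0.00107 to 0.254). CP12-2, the 1 gene counted toward the embryo proper, passed the filter through that library alone, which fixed its direction. EMB3119 (AT3G04790), a ribose 5-phosphate isomerase, had 42.2 RPKM in the suspensor and 74.1 RPKM in the embryo proper. CP12-1 (AT2G47400), named here after its value was seen, exceeded every member in both regions, at 876 RPKM in the suspensor and 854 RPKM in the embryo proper.

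Genes of electron transport and ATP synthesis outside the photosystems leaned toward the embryo proper, with 1 of 12 higher in the suspensor by 2-fold or more, 4 in the embryo proper and a median log2 ratio of −0.36. The paralogues of ferredoxin-NADP reductase, the enzyme that makes NADPH, stood on opposite sides. FNR1 (AT5G66190) had 131 RPKM in the suspensor and 25.9 RPKM in the embryo proper, 5.05-fold (4.47 to 5.71), and FNR2 (AT1G20020) had 1.75 RPKM in the suspensor and 9.78 RPKM in the embryo proper, a fold of 0.179 (0.0956 to 0.312). PGR5 (AT2G05620), of cyclic electron flow, had 3 reads in the suspensor against 63 in the embryo proper, at 1.04 RPKM in the suspensor and 12.3 RPKM in the embryo proper, a fold of 0.0843 (0.0169 to 0.258). PDE334 (AT4G32260), a subunit of the plastid ATP synthase, had 15.0 RPKM in the suspensor and 10.5 RPKM in the embryo proper.

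Chlorophyll synthesis was mixed. Of 16 genes 15 passed; 1 was higher in the suspensor by 2-fold or more, and 6 in the embryo proper. The sum was 239 RPKM in the suspensor and 388 RPKM in the embryo proper, although the median log2 ratio was 0.31. That median was −1.01 among genes that reached 10 RPKM in either library. CH1 (AT1G44446), the oxygenase that makes the chlorophyll b of the antenna, had 6.91 RPKM in the suspensor and 1.51 RPKM in the embryo proper, 4.57-fold (2.98 to 7.15), and HEMA1 (AT1G58290), of the first committed step, had 22.2 RPKM in the suspensor and 12.1 RPKM in the embryo proper. GSA2 (AT3G48730), an aminomutase of the early pathway, had 1.47 RPKM in the suspensor and 10.4 RPKM in the embryo proper, and CHLI1 (AT4G18480), of the magnesium chelatase, had 17.1 RPKM in the suspensor and 55.9 RPKM in the embryo proper. Among the 4 genes that deliver antenna proteins to the thylakoid, CPSRP54 (AT5G03940) stood at 23.6 RPKM in the suspensor and 58.4 RPKM in the embryo proper. CPFTSY (AT2G45770), the receptor of that particle, had 10.4 RPKM in the suspensor and 18.7 RPKM in the embryo proper, while the insertase ALB3 (AT2G28800) had 22.7 RPKM in the suspensor and 14.6 RPKM in the embryo proper; the median log2 ratio was −0.78.

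Plastid import and chaperonin genes lay on the embryo proper side, with 0 of 9 higher in the suspensor by 2-fold or more, 3 in the embryo proper and a median log2 ratio of −0.75. CPN60B (AT1G55490) and CPN60A (AT2G28000), chaperonin subunits that fold Rubisco among other proteins, were both several-fold lower in the suspensor. CPN60B had 16.7 RPKM in the suspensor and 108 RPKM in the embryo proper, and CPN60A had 33.9 RPKM in the suspensor and 112 RPKM in the embryo proper. Of 12 regulators of photosynthesis genes, 7 passed, with 1 apart by 2-fold or more in each direction. SIG1 (AT1G64860), a sigma factor of the plastid polymerase, had 18.7 RPKM in the suspensor and 8.81 RPKM in the embryo proper, and GUN1 (AT2G31400), of plastid-to-nucleus signalling, had 71.8 RPKM in the suspensor and 37.7 RPKM in the embryo proper. SIG6 (AT2G36990) had 9.48 RPKM in the suspensor and 29.8 RPKM in the embryo proper, and PIF3 (AT1G09530), a light-signalling factor, had 1.06 RPKM in the suspensor and 1.95 RPKM in the embryo proper. GLK1 (AT2G20570) and GLK2 (AT5G44190), activators of antenna genes in leaves, were listed in neither library and are named here after that was seen. Of 9 loci of the plastid genome, given by identifier only in the reference, 8 passed, 4 were higher in the suspensor by 2-fold or more, and 0 in the embryo proper, on a sum of 25.3 RPKM in the suspensor and 10.4 RPKM in the embryo proper.

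**Figure D4:**
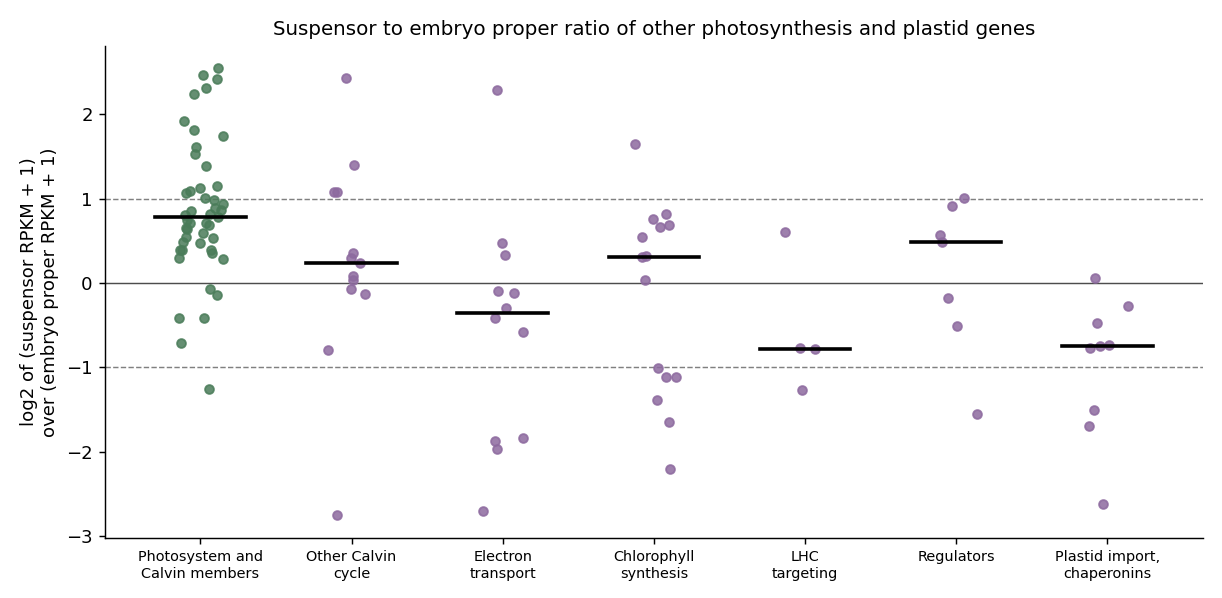
Log2 of suspensor over embryo proper, after adding 1 RPKM to each, for the 47 members that pass the filter and for the genes of 6 other lists that pass it, with the median of each as a bar and dashed lines at 2-fold. The members have a median of 0.78, and the lists for electron transport, targeting of light-harvesting (LHC) proteins and plastid import have medians of −0.36, −0.78 and −0.75.

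The members are short genes. Their median coding length was 774 bases, against 1167 over all genes passing the filter, and the Spearman correlation of length with the log2 ratio was −0.28 over the members and −0.02 over all genes, given as a description with no test. By 4-fold or more on the log2(RPKM + 1) scale, 5 of 47 members were higher in the suspensor, beside 12.3% of all genes. These were PSBQ1, LHCB4.3, PSAE1, PSAH1 and PSAO. LHCB4.3 and PSAH1 passed the filter through the suspensor alone, so their direction was fixed by it. In the embryo proper 0 members passed 4-fold, beside 8.32% of all genes. PSAF, PSAN, LHCA3, PSBQ2, PSBY and PSBO1 lay at the other end of the members that were higher in the suspensor, with log2 ratios of 0.28, 0.30, 0.36, 0.39, 0.39 and 0.40. Both ends thus held subunits of photosystem I and photosystem II.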

How the data were processed

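Per the labels' protocols, 15 ng of total RNA per region was amplified, and Illumina libraries were made from 150 ng of cDNA with 15 cycles of PCR. The authors deposited RPKM values, per the file headers, for genes above 0 only. The build TAIR10 and the tools HTSeq 0.6.1 and HISAT2 2.0.6 are named, without roles, in the submitters' processing notes. The sources used here do not give gene length, strand or the treatment of reads with several matches.

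Libraries were grouped by the tissue in the labels. The measure was the log2 ratio of suspensor over embryo proper after adding 1 RPKM, for genes of at least 1 RPKM in at least 1 library, with thresholds of 2-fold and 4-fold. With 1 library per region there was no test. A gene's fold is the ratio of its recovered reads, rounded to whole reads, as shares of each library's reads, without the pseudocount. It can differ slightly from the ratio of the printed RPKM. A complex's fold is the ratio of its share of reads. Names, coding lengths and upstream sequences came from the RefSeq annotation of TAIR10.1, which matched all 52 members and 19875 of the 20029 listed genes; the files carry no positions.

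Whole reads were recovered by multiplying RPKM by the longest coding length and searching for the value of 1 read. Among genes with a single model, values from 0.2 RPKM up to 15 reads lay within 0.05 of a whole read in 97.0% of cases in the suspensor against 96.9% in the embryo proper, where chance gives 10%. The search was tested on simulated data. Intervals are exact binomial (Clopper-Pearson) at 95%.

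The members and lists were chosen with earlier results of these data known, and so were the measures and the rule for naming genes. That rule names every member, and of each other list at most 2 genes in each direction by the size of their ratio. Alternatives were other pseudocounts, filters and scalings, a 4-fold threshold and summed near-identical paralogues; leaving out members that share 50-base windows with another locus was added after seeing the data. Python 3.11.15, pandas 2.3.3, NumPy 2.4.6, SciPy 1.17.1, Biopython 1.88 and matplotlib 3.10.9 were used.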

Additional observations from a re-analysis of the deposited data

How the results depend on the processing

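No paired analysis was possible because each region has 1 library. No replicate could be left out for the same reason, so the alternatives vary the processing alone. The median log2 ratio of the members was 0.78 and lay between 0.64 and 0.85 under all alternatives but 1. Scaled without the 10 most abundant genes of each library, it was 1.08, with medians of 0.83 for LHCA, 1.48 for photosystem I and 1.10 for photosystem II. Under that scaling 26 members passed 2-fold toward the suspensor and 0 toward the embryo proper, beside 35.4% and 18.8% of all genes. The plastocyanin median, which rests on 2 genes, was then 0.16 in place of −0.12. Over the alternatives the members' median exceeded that of all genes by 0.55 to 0.72. With a filter of 10 RPKM, 10 of the 34 members kept passed 2-fold toward the suspensor, beside 29.0% of all genes kept. The plastocyanin median with that filter was −1.25, that of PETE2 alone. At 4-fold, 5 members passed toward the suspensor and 0 toward the embryo proper, beside 12.3% and 8.32% of all genes. With a pseudocount of 5 RPKM the photosystem II median was 0.59. The direction of 2 members, LHCB1.2 and RCA, changed with the scaling, and the others kept theirs. Members under about 10 reads in a library, such as LHCB4.3, PSAE2 and PSAH1 in the embryo proper, are limited by depth.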

Other observations

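Genes outside the lists above with thylakoid or photosystem words in the annotated product were looked at after the values had been seen. The words could lie in a family name, as in AT1G69680, a putative ran guanine nucleotide release factor. These genes stood on both sides in shares near those of all genes. Of 36 such genes, 9 were higher in the suspensor by 2-fold or more (25.0%, beside 29.3% of all genes), and 9 in the embryo proper (25.0%, beside 23.1%). Of the 36, 6 passed the filter through 1 library only, so their direction was fixed by it. The median log2 ratio of the 36 was −0.12, on summed levels of 838 RPKM in the suspensor and 876 RPKM in the embryo proper. AT4G37230, annotated as a member of the PsbO family, had 9.66 RPKM in the suspensor and 0.182 RPKM in the embryo proper, on 30 reads in the suspensor against 1 in the embryo proper, a fold of 53.1 (8.82 to 2165). COR314-TM2 (AT1G29390), annotated as a cold-regulated thylakoid membrane protein, had 81 reads in the suspensor against 13 in the embryo proper, with a fold between 6.10 and 21.6. On the other side, AT2G28605, of the PsbP family, was not listed in the suspensor and had 59 reads in the embryo proper, and AT3G47070, a thylakoid soluble phosphoprotein, had 5.51 RPKM in the suspensor and 48.3 RPKM in the embryo proper. Genes annotated as CURVATURE THYLAKOID proteins, which shape the edges of grana, stood on both sides. AT1G52220 had 46.7 RPKM in the suspensor and 7.01 RPKM in the embryo proper, and AT4G38100 had 37.0 RPKM in the suspensor and 175 RPKM in the embryo proper.

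Words in the annotated product, also searched after the values had been seen, gave 7 genes with plastid ribosome products, among them the recycling factor RRF. Genes of this ribosome whose product lacks those words were not counted. All 7 were higher in the embryo proper. Of all genes, 53.2% were higher in the suspensor by some amount. By 2-fold or more, 5 of the 7 were higher in the embryo proper (71.4%, beside 23.1% of all genes). The median log2 ratio of the 7 was −1.03, and their sums were 223 RPKM in the suspensor and 696 RPKM in the embryo proper. PSRP5 (AT3G56910) had 72.8 RPKM in the suspensor and 352 RPKM in the embryo proper, and RPL3P (AT3G17465) had 175 reads in the suspensor against 1248 in the embryo proper, a fold of 0.248 (0.211 to 0.291). The summed level of the photosystem and Calvin cycle members thus stood higher in the suspensor library, and that of these plastid ribosome genes in the embryo proper library.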
